A study of Rattus norvegicus with 12 samples.

Results

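Genes of transforming growth factor beta (TGF-beta) signalling were followed in failing and control rat hearts: the ligands Tgfb1, Tgfb2 and Tgfb3, the latent binding proteins Ltbp1 and Ltbp2, the receptors Tgfbr1, Tgfbr2 and Tgfbr3, the corepressor Tgif1 and the response gene Tgfbi. They were chosen by name, as every probe set that the array annotation pairs with exactly 1 of these 10 symbols. This gave 12 probe sets for 9 genes, of 31042 probe sets and 14217 genes in all. No probe set carried the symbol Tgfbr2 alone, and this receptor is not analysed here. Total RNA was measured on 12 arrays of 1 colour, 6 from hearts labelled failing and 6 from hearts labelled control, described in the labels as biological replicates. The labels give the tissue as heart, although their description mentions a cell line. The title of the series names spontaneously hypertensive rats, an inbred strain with high blood pressure, as they pass from compensated hypertrophy into systolic failure. The strain, age and sex of the hearts of either group, the chamber sampled and any treatment of these 12 are not stated in the labels, and 2 further groups of the protocol, both given captopril and 1 of them butyrate too, are not analysed here.

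TGF-beta is secreted in a latent form, in which the growth factor stays bound to its own propeptide and the propeptide is tied to a latent TGF-beta binding protein of the matrix. Once released, the ligand binds the type II receptor, which recruits and activates the type I receptor encoded by Tgfbr1, while betaglycan (Tgfbr3) is a co-receptor that presents ligand. The activated receptor phosphorylates SMAD proteins that enter the nucleus with SMAD4, and in the heart the pathway is best known for turning fibroblasts into matrix-producing cells.

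In failing hearts, transcripts of both latent binding proteins, of the corepressor Tgif1 and of the matrix protein gene Tgfbi were higher than in control hearts. None of the 3 ligand genes passed the test. Passing or not does not by itself show an unequal change, and Ltbp1 was not compared directly with a ligand. Ltbp2 was 2.64-fold higher, Tgif1 2.06-fold, Tgfbi 1.78-fold and Ltbp1 1.48-fold, with n = 6 in each group. The 4 are called here among brighter genes, the 7109 genes whose mean log2 intensity over the 12 arrays reached 8.21, the median level, with limma and an adjusted p under 0.05. They were 4 of the 8 members above that level, all 4 higher, where 10.1% of all brighter genes were called, 5.4% higher and 4.73% lower. The count was 5 without control replicate 4 (23.7% of all brighter genes called) and 4 without failing replicate 1 (7.1%) or 5 (16.9%). More often the count fell to 3, as Ltbp1 was lost. This was so for failing hearts 2, 4 and 6 and controls 2, 3 and 5, omitted singly. In those fits 3.56% to 7.99% of all brighter genes were called. The count was 2 without failing replicate 3, control replicate 1 or control replicate 6 (2.55%, 2.52% and 2.77% of all brighter genes called). Tgif1 and Tgfbi were called each time. The median difference of the 8 was 0.49 (log2, failing minus control), against -0.025 for all brighter genes. Over all 14217 genes, limma called 0% of genes and 0 of the 9 members (lowest adjusted p = 0.0729 among members), although 5 members had an unadjusted p under 0.05, all higher, beside 9.12% of all genes higher and 9.95% lower at that level. An exact permutation test called 0 members after adjustment too. Tgfbi had the smallest p this test can give (0.00216), so here even groups without overlap did not pass. Over all genes, limma called 3 members without failing replicate 5 (2.47% of all genes called) and 2 without control replicate 4 (4.75%). The brightest probe set of all 9 measured members was higher on average in failing hearts, as in 46% of all genes, and so were 11 of the 12 member probe sets, against 47.4% of all probe sets, of which limma called 0%. In what follows a gene rose or fell if it passed among the brighter genes, and levels are log2 intensities, which are not compared between probe sets. Bulk heart RNA cannot tell fewer cells of a type from less RNA per cell.

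The arrays correlated with one another at 0.915 to 0.945 (Spearman) and had been scaled alike. On the first principal component of the brighter genes, which held 41.2% of their variance, control replicate 4 lay at 7.98 among the failing hearts (-24.7 to -13.4 in the other controls) and failing replicate 5 at -6.11, below the other failing hearts (8.52 to 28.0). Cardiomyocyte markers were bright in every heart (mean log2 of 9 genes from 14.5 to 15.3). The hepatocyte and kidney markers were dim, with all 6 at a mean log2 level under that of an intensity of 50. Of 4 skeletal muscle markers 3 were under it too, but the probe set that stood for Myh1 was bright (mean log2 13.2 in failing and 14.3 in control hearts). Whether that probe set also reads other myosin transcripts was not tested.

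The promoters of 3 of the genes that rose are shown because their transcripts were all higher in failing hearts; Tgif1 had no entry. Each is the 250 bases before the transcript start in the RefSeq table of GRCr8, 5′ to 3′ on the gene's strand, and capitals mark CAGAC or its reverse complement GTCTG, the short SMAD-binding box. The windows are chr6:26177302-26177551 on the minus strand for Ltbp1, chr6:110257299-110257548 on the minus strand for Ltbp2 and chr17:7990114-7990363 on the minus strand for Tgfbi.
Ltbp1: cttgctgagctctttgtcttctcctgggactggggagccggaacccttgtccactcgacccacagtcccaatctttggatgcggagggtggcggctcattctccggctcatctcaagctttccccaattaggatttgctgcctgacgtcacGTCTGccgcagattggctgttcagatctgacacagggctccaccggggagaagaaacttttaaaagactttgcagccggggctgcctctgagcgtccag
Ltbp2: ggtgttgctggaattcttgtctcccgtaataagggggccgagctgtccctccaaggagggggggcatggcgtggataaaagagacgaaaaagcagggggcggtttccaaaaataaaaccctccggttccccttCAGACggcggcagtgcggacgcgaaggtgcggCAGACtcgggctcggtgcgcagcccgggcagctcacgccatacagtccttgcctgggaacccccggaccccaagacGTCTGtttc
Tgfbi: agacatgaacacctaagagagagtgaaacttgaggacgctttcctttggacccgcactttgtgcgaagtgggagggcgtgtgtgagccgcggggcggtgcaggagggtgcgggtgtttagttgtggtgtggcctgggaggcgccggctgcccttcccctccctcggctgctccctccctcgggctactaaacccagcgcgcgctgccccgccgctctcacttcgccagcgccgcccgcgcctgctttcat
The box occurred 3 times in the Ltbp2 window, beginning 117, 85 and 9 bases before the start, and 1 time in the Ltbp1 window, 99 bases before it. The Tgfbi window held none, nor did those of Tgfb1, Tgfb2, Tgfb3, Tgfbr1, Tgfbr2 and Tgfbr3. The same letters on either strand are found in 42.9% of all 33469 promoter windows of this length, with a mean of 0.579 matches a window. The AP-1 motif TGANTCA, a palindrome searched on both strands, was in 0 of the 9 member windows and in 6.34% of all. These are matches of letters in reference sequence, not sites measured in these hearts.

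**Figure D1:**
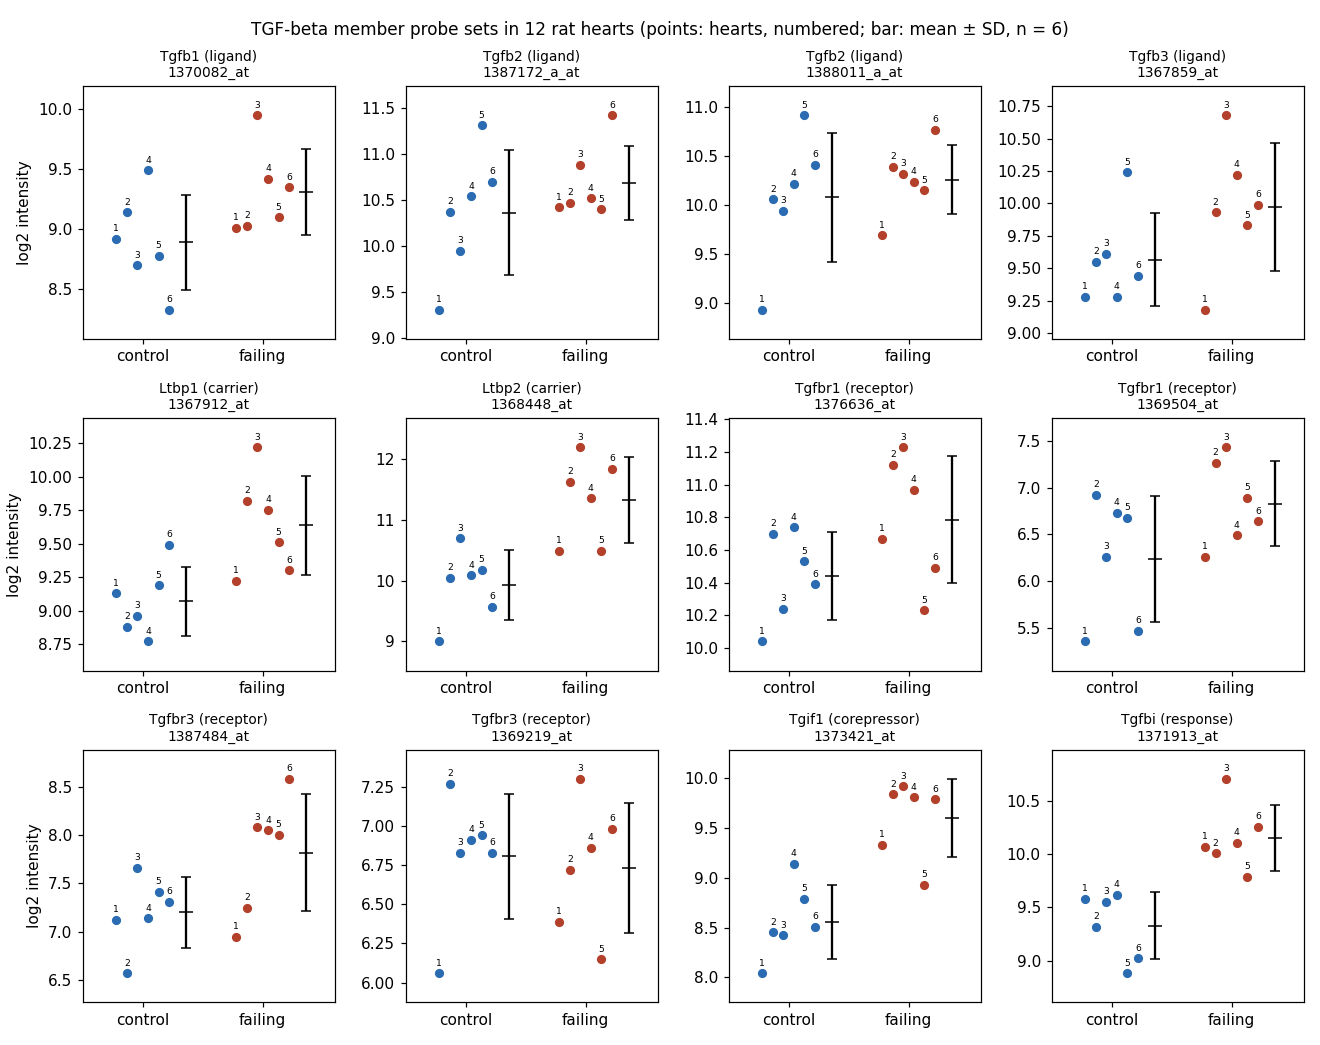
Log2 intensity (y axis) of each of the 12 member probe sets in control (blue) and failing (red) hearts; points are hearts with their replicate numbers, bars are means ± SD (n = 6). Groups are apart only for Tgfbi, where failing hearts start at 9.79 and control hearts end at 9.62.

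Among the ligands, Tgfb1, the isoform most studied in cardiac fibrosis, lay between 9.01 and 9.95 in failing hearts (median 9.22) and between 8.33 and 9.49 in control hearts (median 8.85). The groups overlapped: failing replicate 3 alone exceeded every control heart, and control replicate 4 was the highest control. The difference was 0.42 ± 0.20 (log2, ± SE), a 1.34-fold level with a 95% interval from 0.999 to 1.79, and did not pass (limma adjusted p = 0.168). With control replicate 4 left out it was 0.54 and passed (adjusted p = 0.046).

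Tgfb2 was measured by 2 probe sets, whose reads of the same transcript are not independent replicates. The brighter ran from 10.40 to 11.42 in failing hearts (median 10.50) and from 9.31 to 11.31 in control hearts (median 10.45), with control replicate 1 lowest and control replicate 5 highest of the controls. All failing hearts but replicate 6 lay inside the control range, and the difference of 0.32 ± 0.28 did not pass (limma adjusted p = 0.452; 95% interval of the fold from 0.827 to 1.90). It was 0.11 without control replicate 1, 0.18 without failing replicate 6 and 0.51 without control replicate 5. The dimmer Tgfb2 probe set gave 0.18 ± 0.30 in the fit over all probe sets, and the pair differed by 0.15 (exact permutation p = 0.253).

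Tgfb3 ran from 9.18 to 10.68 in failing hearts (median 9.96) and from 9.28 to 10.24 in control hearts (median 9.49). Failing replicate 1 was the lowest of all 12 hearts, and control replicate 5 stood well above the other controls. The difference of 0.41 ± 0.22 did not pass (limma adjusted p = 0.228; 95% interval of the fold from 0.957 to 1.84). It was 0.26 without failing replicate 3. The 3 ligand intervals all take in folds of 1 and of 1.5, so these arrays leave both an equal level and a rise of that size within the error.

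Both carriers rose, and Ltbp2 had the largest difference of the 9 members. It encodes a microfibril-associated member of the latent binding protein family that, unlike Ltbp1, is not known to bind latent TGF-beta. Ltbp2 lay between 10.49 and 12.20 in failing hearts (median 11.49) and between 8.999 and 10.70 in control hearts (median 10.07). Failing replicates 2, 3, 4 and 6 exceeded every control heart, and failing replicates 1 and 5, both at 10.49, fell below control replicate 3. The difference was 1.40 ± 0.32, with a 95% interval of the fold from 1.64 to 4.26 (limma adjusted p = 0.0223). It was larger than in 99.7% of the brighter genes. The call ended when failing replicate 3, control replicate 1 or control replicate 6 was left out (0.0517 to 0.0533 for the adjusted p).

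Ltbp1, which tethers the latent complex in the matrix, ran from 9.22 to 10.22 in failing hearts (median 9.63) and from 8.77 to 9.49 in control hearts (median 9.04). Failing replicates 2 to 5 lay above all controls, and control replicate 6 was the highest control. The difference of 0.57 ± 0.17 passed narrowly (limma adjusted p = 0.0478; 95% interval of the fold from 1.15 to 1.91). The call held without control replicate 4 or failing replicate 1 or 5, and ended without any other 1 heart, failing replicates 2, 3, 4 and 6 and control replicates 1, 2, 3, 5 and 6 in turn (adjusted p from 0.0518 to 0.0993).

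**Figure D2:**
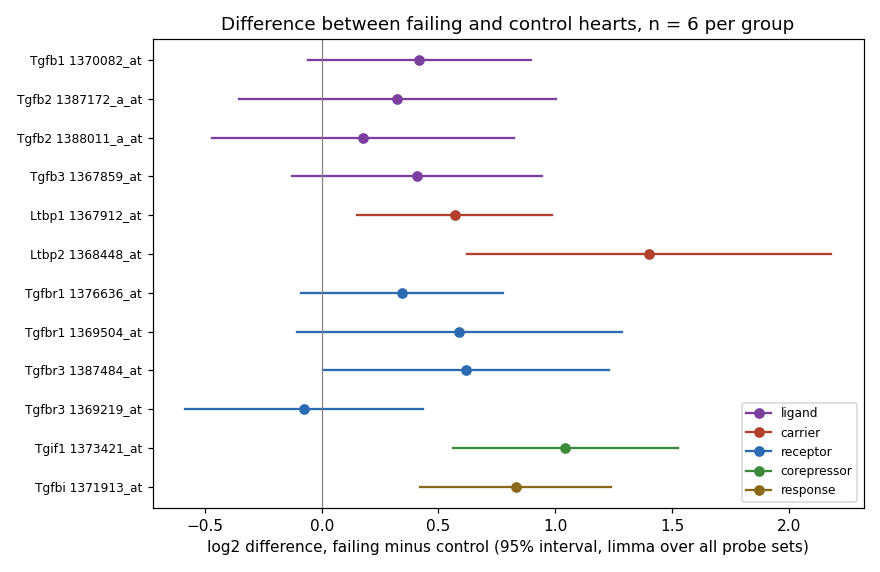
Log2 difference between failing and control hearts (x axis) for each member probe set, with 95% intervals from limma over all 31042 probe sets, coloured by role; n = 6 per group. The intervals of Ltbp1, Ltbp2, Tgif1, Tgfbi and the brighter Tgfbr3 probe set lie above 0, and 1 Tgfbr3 probe set points below 0, at -0.075.

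Of the receptors, Tgfbr1, the type I receptor kinase, lay between 10.23 and 11.23 in failing hearts (median 10.82) and between 10.04 and 10.74 in control hearts (median 10.46). Failing replicates 2, 3 and 4 were above all controls, while failing replicates 1, 5 and 6 lay inside the control range. The difference of 0.34 ± 0.18 did not pass (limma adjusted p = 0.208; 95% interval of the fold from 0.976 to 1.65). A dimmer Tgfbr1 probe set, from 5.36 to 7.43 over the 12 hearts, gave 0.59 ± 0.32 over all probe sets, and the pair did not differ beyond the spread between hearts (exact permutation p = 0.359).

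Betaglycan was measured by 2 probe sets, whose differences had opposite signs. The brighter Tgfbr3 probe set ran from 6.95 to 8.58 in failing hearts (median 8.03) and from 6.57 to 7.66 in control hearts (median 7.22), a difference of 0.62 ± 0.28 in the fit over all genes (limma adjusted p = 0.252; its mean of 7.51 was below the level of the brighter genes). Failing replicates 3 to 6 exceeded all controls, and failing replicates 1 and 2 did not. The other probe set, from 6.15 to 7.30 in failing and from 6.06 to 7.27 in control hearts, gave -0.075 ± 0.23 in the fit over all probe sets. The 2 differed by 0.69 in their response, which did not pass (exact permutation p = 0.0584), and the mean of its probe sets gave 0.27.

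Tgif1 encodes a homeodomain protein that represses SMAD target genes. It lay between 8.93 and 9.92 in failing hearts (median 9.80) and between 8.04 and 9.14 in control hearts (median 8.48). All failing hearts but replicate 5 exceeded every control heart, and the highest control was replicate 4. The difference was 1.04 ± 0.20, with a 95% interval of the fold from 1.54 to 2.76 (limma adjusted p = 0.0142), larger than in 99.0% of the brighter genes. The call held whichever 1 heart was left out (adjusted p from 0.00204 to 0.0386).

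Tgfbi encodes a secreted matrix protein first found as a transcript induced by TGF-beta. Its levels ran from 9.79 to 10.71 in failing hearts (median 10.09) and from 8.88 to 9.62 in control hearts (median 9.43). It was the 1 member whose groups did not overlap, as was so, with failing hearts higher, for 2.11% of all brighter genes. The difference of 0.83 ± 0.17 (95% interval of the fold from 1.39 to 2.28) passed (limma adjusted p = 0.0159) and did so whichever 1 heart was left out (adjusted p from 0.00575 to 0.0439).

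**Figure D3:**
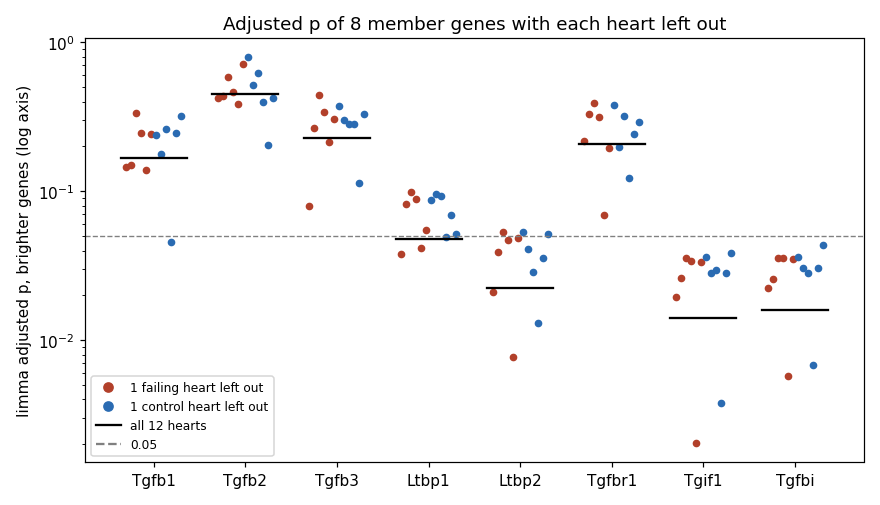
Adjusted p from limma for brighter genes (log y axis) of the 8 brighter members, over all 12 hearts (black bar) and with each failing (red) or control (blue) heart left out; the dashed line is 0.05. Every point of Tgif1 and Tgfbi lies under the line, Ltbp1 and Ltbp2 cross it, and of the other 4 genes only Tgfb1, without control replicate 4, goes under it.

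The same hearts tended to be high or low across the members. Failing replicate 3 was the highest of the 12 hearts in 9 of 12 probe sets and among the top 3 in 11, and control replicate 1 was the lowest in 7. Failing replicates 1 and 5 shared the place of lowest failing heart, 6 probe sets each. Control replicate 4 was the highest control in 4 probe sets, among them Tgfb1, Tgif1 and Tgfbi. Members of 1 heart share its array, so these counts are a description.

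Whether the members changed unequally was asked with the log2 ratio of 2 members on the same array, for 6 pairs, by exact permutation, two-sided, of the group labels over their 924 arrangements. Relative to Tgfb1, Ltbp2 was 2.02 ± 0.51 in failing and 1.04 ± 0.67 in control hearts (SD, n = 6), a difference of 0.98 (exact p = 0.0195, adjusted over the 6 pairs p = 0.0476). Only failing replicates 2, 3 and 6 exceeded all controls, control replicate 3 being the highest of these at 2.00. Tgif1 relative to Tgfb1 differed by 0.63 (exact p = 0.0195, adjusted p = 0.0476) and Tgfbi relative to Tgfb1 by 0.41 (exact p = 0.0238, adjusted p = 0.0476). These 3 ratios have the Tgfb1 value in common and are not independent. All 3 calls held only without failing replicate 5 or control replicate 3, and ended without any other 1 heart, control replicate 4 included (adjusted p from 0.0649 to 0.113). Ltbp2 relative to Ltbp1 differed by 0.83 (exact p = 0.0563, adjusted p = 0.0844). Relative to Tgfb1, Tgfb2 differed by -0.093 (exact p = 0.786) and Tgfb3 by -0.011 (exact p = 0.981), so among ligands no unequal change was detectable with these hearts.

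**Figure D4:**
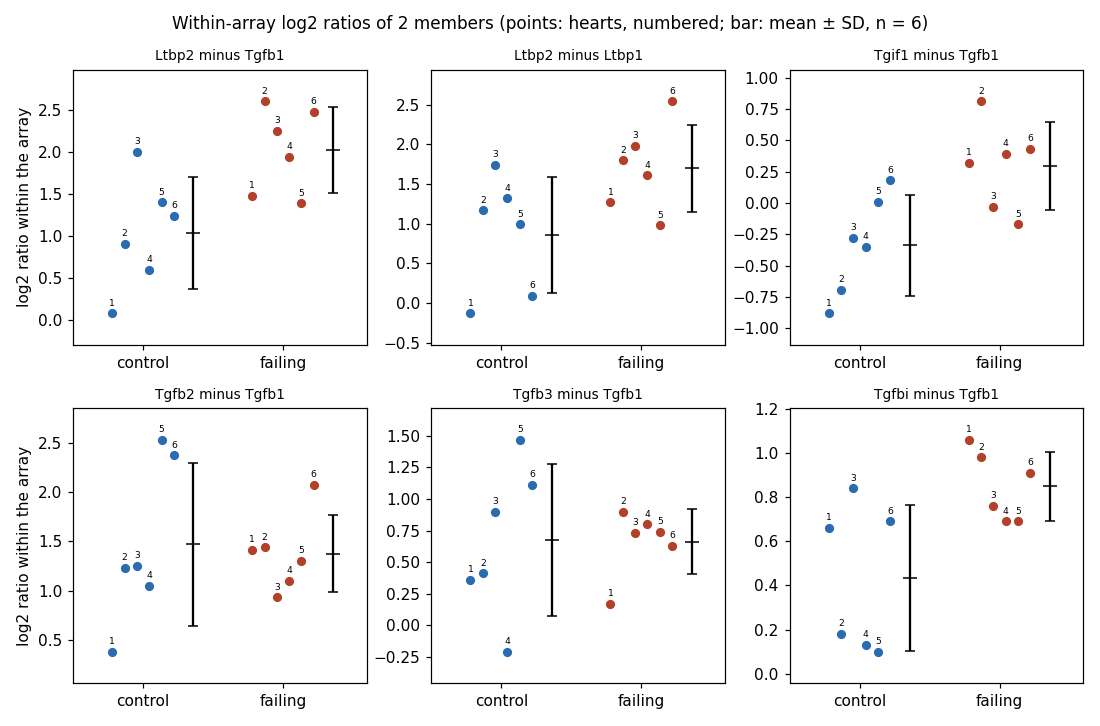
Log2 ratio of 2 members on the same array (y axis) in control (blue) and failing (red) hearts; points are hearts with their replicate numbers, bars are means ± SD (n = 6). Ltbp2, Tgif1 and Tgfbi relative to Tgfb1 are higher in failing hearts with overlap, whereas Tgfb2 and Tgfb3 relative to Tgfb1 have nearly equal means.

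The rest of the pathway was described with a list of 66 genes in 6 roles, of which 62 were measured and 51 were brighter genes. Of the 51, 17 rose and 0 fell, where 5.4% of all brighter genes rose, and their median difference was 0.41 against -0.025 for all brighter genes. The count was 22 without control replicate 4, where 10.2% of all brighter genes rose. It was 9, 11 and 10 without failing replicates 3, 4 and 6 in turn, and 8 and 11 without control replicates 1 and 6, where 1.84%, 2.32%, 2.59%, 1.87% and 1.97% of all brighter genes rose. Of the 13 risen genes that the naming rule chose (up to 3 a role by smallest p), 8 rose whichever 1 heart was left out.

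In the storage and release of the ligand, 5 of 11 brighter genes rose, beside 5.4% of all brighter genes. The gelatinase gene Mmp2 was 0.89 ± 0.16 higher (limma adjusted p = 0.0142), Emilin1, an elastic fibre glycoprotein that restrains ligand processing, 0.82 ± 0.17 (adjusted p = 0.0175), and the integrin subunit gene Itgb5 0.67 ± 0.14 (adjusted p = 0.0173). These 3 genes were named for their small p, and their groups did not overlap, as for 2.11% of all brighter genes with failing hearts higher. The remaining latent binding proteins were looked at after their values were seen: Ltbp3 rose by 0.75 ± 0.18 (adjusted p = 0.0249; not refitted without single hearts), and Ltbp4 differed by 0.19 ± 0.15 (adjusted p = 0.419). The proteoglycans that bind TGF-beta outside the cell rose in 3 of 3 brighter genes, asporin (Aspn) by 1.09 ± 0.24, biglycan (Bgn) by 1.05 ± 0.27 and decorin (Dcn) by 0.50 ± 0.10 (limma adjusted p = 0.0207, 0.0294 and 0.0159). The Aspn call ended without control replicate 1 (adjusted p = 0.052) and the Bgn call when failing replicate 3, 4 or 6 or control replicate 1, 2, 3 or 6 was left out (0.0518 to 0.0711 for the adjusted p).

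Of the co-receptors and related receptors, 1 of 3 brighter genes rose, beside 5.4% of all brighter genes. Endoglin (Eng), an endothelial co-receptor, rose by 0.52 ± 0.13 (limma adjusted p = 0.0294). Acvrl1, the endothelial type I receptor, differed by 0.11 ± 0.15 and Acvr1 by 0.073 ± 0.12, and neither passed. Leaving out 1 heart moved them between 0.0021 and 0.20 for Acvrl1 and between 0.015 and 0.13 for Acvr1. Of the signal transducers 1 of 8 rose, beside the same 5.4%, and their median difference was 0.033. A single risen gene says little of its role. Smad4, the SMAD shared by all branches of the family, rose by 0.41 ± 0.10 (adjusted p = 0.0273). It was named for its small p, and its groups did not overlap, as for 2.11% of all brighter genes with failing hearts higher. Zfyve9, which anchors receptor SMADs, and Tab1, a partner of the kinase TAK1, did not pass at 0.45 ± 0.19 and -0.24 ± 0.12 (adjusted p = 0.123 and 0.188). The Eng and Smad4 calls each depended on 6 hearts, the adjusted p reaching 0.0522 to 0.0694 for Eng and 0.05003 to 0.0619 for Smad4 when 1 of them was left out. These were failing replicates 2, 3 and 6 and control replicates 1, 3 and 6 for Eng, and failing replicates 3, 4 and 6 and control replicates 1, 2 and 3 for Smad4.

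Inhibitors and corepressors, the group to which Tgif1 belongs, had 2 of 9 brighter genes higher, beside 5.4% of all brighter genes. Pmepa1, a membrane protein that sequesters receptor SMADs and is induced by the pathway, rose by 0.81 ± 0.17 (limma adjusted p = 0.0175). It too was named for its small p, and its groups did not overlap, as for 2.11% of all brighter genes with failing hearts higher. The corepressor Skil rose by 0.55 ± 0.13 (adjusted p = 0.0257). The Skil call ended when failing replicate 3 or control replicate 1, 2 or 6 was left out (0.0531 to 0.0631 for the adjusted p). Ppm1a, a phosphatase of receptor SMADs, differed by 0.30 ± 0.10 and did not pass (adjusted p = 0.0649). Among response genes 5 of 17 rose and 0 fell. The 3 brighter ones with the smallest p were fibronectin (Fn1, 1.80 ± 0.37), lysyl oxidase (Lox, 1.55 ± 0.34) and periostin (Postn, 1.31 ± 0.27), at limma adjusted p of 0.0162, 0.0192 and 0.0162.

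**Figure D5:**
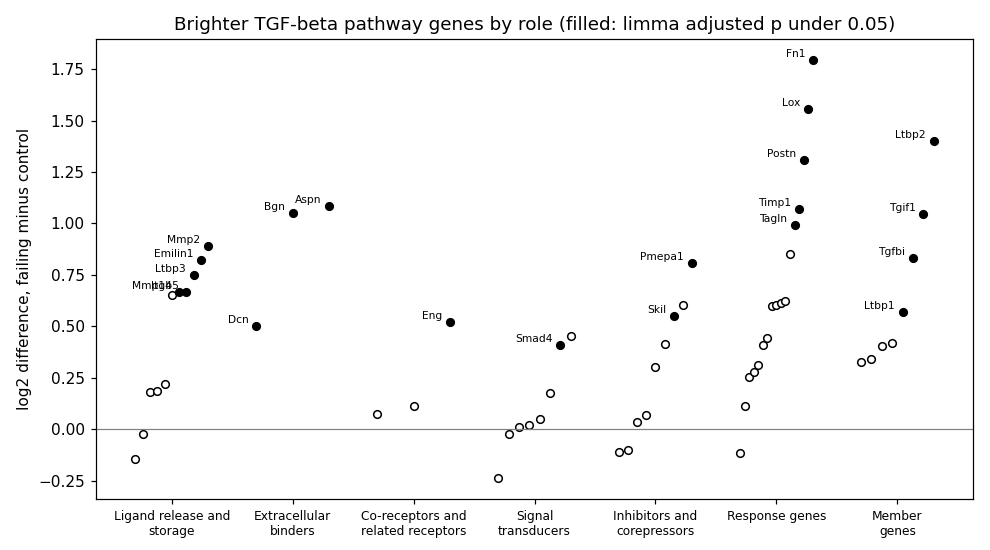
Log2 difference between failing and control hearts (y axis) of each brighter gene of the pathway list by role, with the members at the right; n = 6 per group, filled points passed limma at an adjusted p under 0.05. Filled points number 17 of 51 in the list and 4 of 8 among members, all above 0.

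Markers of other cell types were counted in the same fit, in which 5.4% of all brighter genes rose and 4.73% fell. Of 11 brighter fibroblast markers 4 rose and 0 fell, and their mean log2 level over 12 genes was 11.2 to 12.6 in failing and 10.9 to 11.5 in control hearts. No fibroblast marker had a mean log2 level under that of an intensity of 50, and 4 of the 12 are in the pathway list too. Macrophage markers rose in 4 of 7 brighter genes (5 without control replicate 4), with mean levels of 9 genes from 9.44 to 10.8 in failing and from 9.07 to 9.86 in control hearts. Smooth muscle and pericyte markers rose in 2 of 6 (mean of 7 genes 9.25 to 10.2 and 8.69 to 9.37), of which 2 of 7 measured are pathway genes. Endothelial markers gave 1 higher and 1 lower of 7, and 0 of 9 cardiomyocyte markers passed in either direction; without control replicate 4, where 23.7% of all brighter genes were called (10.2% higher), 2 endothelial markers were higher and 2 cardiomyocyte markers lower. The marker lists were refitted without control replicate 4 only, so how their counts depend on the other hearts is not known. The part of these cell types in the differences of the members was not tested. T, B and NK cell markers had no gene among the brighter ones, and 3 of 6 had a mean log2 level under that of an intensity of 50.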

How the data were processed

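The authors deposited 1 table of linear intensities with 31099 probe sets and 12 columns, from 0.1 to 79913.6. Per the submitters' processing notes RMA was used (version not given), but the linear scale and a mean near 500.2 on every array (2% trimmed from each end) leave the summary method unknown. Such scaling would hide a shift of most genes in 1 direction. Values were converted to log2 without an offset, 57 control probe sets were left out, and the brightest of a gene's probe sets stood for it. The 9 measured members matched the RefSeq table of GRCr8 by gene identifier. The group comparison used limma (version 3.58.1, R 4.3.3; lmFit, eBayes, group as the only term, two-sided) and Benjamini-Hochberg adjustment at 0.05. The fit was checked on simulated data with noise independent between genes. Recovery was required only for a planted difference larger than that of any member. Smaller differences were planted too, but their recovery is not reported here. The check as given therefore does not tell how well differences of the members' size are found. SE are from the brighter-gene fit unless another is named. Figures used matplotlib 3.10.9. The members, lists, pairs and the use of the brighter genes were chosen with earlier results of these data known. Pairs with Tgfbr2 were not analysed here, so 6 pairs entered the adjustment in place of 8. All members were named, and up to 3 pathway genes a role by smallest p; Ltbp3 and Ltbp4 were added after their values were seen. Nothing says that the 6 hearts of a group were free of shared batches. The number of arrays limits the precision.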

Additional observations from a re-analysis of the deposited data

Results flagged for a closer look

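A gap to the nearest heart, as a share of the group's range, above Dixon's 95% critical value was found in 3 of 36 groups of 6 values, where chance gives about 1 in 20. Control replicate 5 was the highest control for Tgfb3, at 10.24 against 9.61 for the next. Control replicate 1 was the lowest control for the dimmer Tgfbr3 probe set, at 6.06 against 6.83. Failing replicate 1 had the lowest log2 ratio of Tgfb3 to Tgfb1 in its group, at 0.17 against 0.63.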

How the results depend on the processing

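All 9 members kept the sign of their difference under 11 alternatives and 12 fits without 1 heart. An intensity trend, robust eBayes, a minimum intensity, the permutation test and a replicate block leave the difference itself unaltered. The sign could change only under the other alternatives and the fits without 1 heart. Of 4 called members, 2 (Tgif1 and Tgfbi) were called with a minimum of 50 for the arithmetic mean of linear intensity. With that minimum, 1.05% of the 11659 genes tested were called. An exact permutation test, whose smallest p is 0.00216, called 0 members and 0 of all 7109 genes. Without 1 heart the count ran from 2 to 5, and array weights called 6, adding Tgfb1 and Tgfbr1, with 26.9% of all brighter genes called against 10.1%. Over all genes, 0 members became 3 with an intensity trend (3.69% of all genes called) and 3 with array weights (4.62%). They became 2 with an offset of 32 (0.767%), 2 with the minimum of 50 (1.05%) and 0 to 3 without 1 heart (2.47% where it was 3). Over all probe sets, 0 became 3 with the trend (1.82% of all probe sets called) and 0 to 1 without 1 heart (0.515% where it was 1). The pathway count ran from 8 to 22 without 1 heart. The ratio differences without 1 heart ran from 0.79 to 1.18 (Ltbp2 to Tgfb1), 0.64 to 1.01 (Ltbp2 to Ltbp1), 0.52 to 0.73 (Tgif1 to Tgfb1), 0.35 to 0.50 (Tgfbi to Tgfb1), -0.31 to 0.12 (Tgfb2 to Tgfb1) and -0.19 to 0.15 (Tgfb3 to Tgfb1). The last 2 changed sign: Tgfb2 to Tgfb1 without control replicate 5 (0.12) or 6 (0.087), and Tgfb3 to Tgfb1 without failing replicate 1 (0.087) or control replicate 3 (0.035), 5 (0.15) or 6 (0.077). The causes were not tested. The Ltbp1 call also ended under quantile normalization, median centring, the RNA quality covariate and the mean of all probe sets. With the replicate number as a block, 3 members were called (Ltbp1 was not), and 411 of the brighter genes in place of 720, but same-numbered hearts did not deviate together (correlations from -0.12 to 0.26; 2 of 6 failing hearts correlated best with the control heart of their own number). Leave-one-out fits of the pathway list and its median centring were chosen after seeing the data. Dim transcripts limit the test: the median SD was 0.784 among dimmer and 0.236 among brighter genes.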
